A study of Mus musculus with 8 samples.

Results

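The Serpina3 genes are mouse serpins of clade A that lie side by side on chromosome 12, where humans have a single SERPINA3 gene for alpha-1-antichymotrypsin. The 6 members described here are Serpina3c, Serpina3f, Serpina3g, Serpina3k, Serpina3m and Serpina3n, 6 of 24972 genes in the table and 6 of its 11 genes whose symbol begins with Serpina3. They were chosen by symbol with their normalized counts and changes in these same 8 libraries known, so their levels and calls are a description and not an independent test. Liver was taken from C57BL/6J mice aged 18 weeks, 8 weeks after a virus was injected into a vein at 10 weeks of age. Mice of the ATF3 group received AAV8-ALB-ATF3, an adeno-associated virus named for the stress-induced transcription factor ATF3, and mice of the Null group received AAV8-ALB-Null, its control without a named gene. ALB was taken as the albumin promoter, so the model drives the delivered gene in hepatocytes. All mice of both groups thus carried the vector, and no uninjected liver was analysed here. Each group has 4 libraries, although 8 mice were injected for each according to the design text. Whether a library is 1 mouse or a pool is not labelled, so a p-value here reflects spread among libraries, which may be technical.

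Serpins inhibit proteases by offering an exposed reactive centre loop as bait. The protease cuts the loop, the loop inserts into the body of the serpin, and the enzyme is left trapped and distorted. The letters of the loop largely set which protease is caught, and mouse Serpina3 genes, which arose by repeated duplication, differ most there. Hepatocytes secrete several of these proteins into plasma, some of them as part of the acute phase response that interleukin 6 drives through STAT3.

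The coding stretches of the loop are shown because the 6 members differ more per aligned base there than in the rest of the coding sequence. They were read from the GENCODE vM21 transcripts for mm10. Each runs 5′ to 3′, from the conserved hinge before the loop to the conserved strand after it, and capitals mark the variable part between these.
Serpina3k: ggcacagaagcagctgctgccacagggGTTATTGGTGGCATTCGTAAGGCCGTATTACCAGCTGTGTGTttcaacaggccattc
Serpina3m: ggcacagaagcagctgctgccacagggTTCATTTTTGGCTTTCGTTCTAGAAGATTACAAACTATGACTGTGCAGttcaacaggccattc
Serpina3n: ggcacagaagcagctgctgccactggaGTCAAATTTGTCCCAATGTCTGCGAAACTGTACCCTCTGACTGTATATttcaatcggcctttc
Serpina3g: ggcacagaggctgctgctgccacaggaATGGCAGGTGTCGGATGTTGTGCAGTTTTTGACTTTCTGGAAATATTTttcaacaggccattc
Serpina3f: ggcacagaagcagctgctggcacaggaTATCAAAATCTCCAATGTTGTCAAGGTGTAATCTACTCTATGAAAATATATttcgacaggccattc
Serpina3c: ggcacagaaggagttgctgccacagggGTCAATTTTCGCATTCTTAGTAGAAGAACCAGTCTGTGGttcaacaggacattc
The capitals spanned 42 bases in Serpina3k, 48 in Serpina3m, Serpina3n and Serpina3g, 51 in Serpina3f and 39 in Serpina3c. Over the 15 pairs of members, 47.6% to 78.4% of aligned bases were identical within the capitals, and 82.9% to 93.0% outside them. The capitals were set as the part between conserved letters, which count with the rest, and this choice favours a lower identity within them. Over aligned bases, the capitals were less alike than the rest in 15 of 15 pairs. With gaps counted as differences they were less alike in 10 of 15 pairs, and the other 5 involve Serpina3g, whose annotated coding sequence is shorter (744 bases) and leaves long gaps. Serpina3k and Serpina3m, the closest pair with 92.6% of 1243 aligned coding bases identical, had 29 of 37 aligned bases identical in the capitals (78.4%), or 54.7% of 53 positions with gaps counted.

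**Figure D1:**
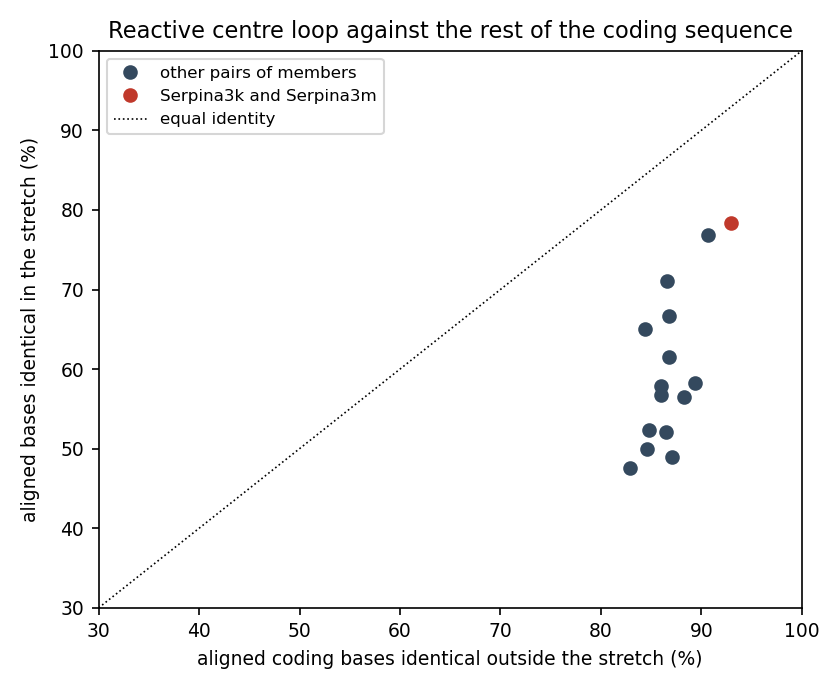
Percent of aligned bases that are identical in the variable loop stretch (vertical axis) against the same percent in the remaining coding sequence (horizontal axis), gaps left out of both, 1 point for each of the 15 pairs of members. All points lie under the dotted line of equal identity, and the pair Serpina3k and Serpina3m lies at 78.4% in the stretch and 93.0% outside it.

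In mm10 all members lie on chromosome 12. Serpina3c spans chr12:104146382-104153870 on the minus strand. The others are on the plus strand, Serpina3f at chr12:104214544-104221129, Serpina3g at chr12:104236245-104241939, Serpina3k at chr12:104338486-104346144 and Serpina3n at chr12:104406729-104414329. Serpina3m is annotated at chr12:104338486-104394257, because 1 of its 2 transcripts begins at the first exon of Serpina3k. Its other transcript starts at chr12:104387164-104394257.

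The deposited normalized counts summed to between 23919300 and 28446000 per library. Atf3 had 5611, 5886, 7053 and 6722 normalized counts in ATF3 1 to 4, and 22.9 ± 1.92 in Null (SD, n = 4). Its log2 change was 8.05 (SE 0.11, limma adjusted p = 5.60e-11), and delivered and endogenous transcripts cannot be told apart in these values. Hepatocyte markers were abundant in every library, with a summed level of 3265680 to 3827380 in ATF3 and 2414960 to 3738100 in Null. A small-RNA locus, Mir6236, took 89.4% of the TPM in Null 1 and 0.308% in Null 4, so TPM are given here without Mir6236 and Rn45s. Null 4 lay apart on the second principal component, at -52.1 against -13.3 to 27.7 in the other libraries. Null 3 held 29785 normalized counts of Saa1 and 19862 of Saa2, acute phase genes chosen for mention after their values were seen. Saa1 lay between 575 and 1277 in ATF3 and between 536 and 3841 in the other Null libraries.

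Serpina3m was higher and Serpina3k was lower in ATF3 livers, and the other 3 members tested did not pass. Of the 6 members, 5 had at least 10 normalized counts in at least 4 libraries and were tested, and Serpina3c was not. Of those 5, 2 passed an adjusted p of 0.05 (limma on log2 of the value plus 1, over 13301 genes), where 21.2% of all genes tested did. Serpina3m was 1 member called higher, beside 11.4% of all genes, and Serpina3k was 1 called lower, beside 9.82%. The groups did not overlap for these same 2 members, and for 26.3% of all genes tested. Because the members were chosen with this contrast known, nothing is read from these counts. In bulk liver, fewer cells of a type and less RNA per cell cannot be told apart.

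Serpina3m encodes a secreted serpin that is closest to Serpina3k in coding sequence. It had 20678, 27250.5, 24946 and 25655 normalized counts in ATF3 1 to 4, and 3818, 4478, 4013 and 5946 in Null 1 to 4. The lowest ATF3 library lay well above the highest Null library. The means were 24632 ± 2807 in ATF3 and 4563 ± 962 in Null (SD, n = 4 each), 5.40 times as high in ATF3. The log2 change was 2.45 (SE 0.15, limma adjusted p = 2.65e-06). It stayed past the threshold under all 18 alternative settings, between 2.37 and 3.43. Per length, Serpina3m stood at rank 102 to 117 of all genes by TPM in ATF3 libraries and at rank 513 to 710 in Null libraries.

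Serpina3k encodes contrapsin, an abundant plasma inhibitor of trypsin-like proteases that also binds tissue kallikrein. It had 187098, 260934, 229934 and 208163 normalized counts in ATF3 1 to 4, and 268387, 334856, 321911 and 393201 in Null 1 to 4. The highest ATF3 library, ATF3 2, lay just under the lowest Null library, Null 1. The means were 221532 ± 31557 in ATF3 and 329589 ± 51247 in Null (SD, n = 4 each). The log2 change was -0.57 (SE 0.17, limma adjusted p = 0.0410). This call lay close to the threshold, since it held only without ATF3 2 or Null 1 among the 8 fits that left out 1 library, and was lost without any 1 of ATF3 1, ATF3 3, ATF3 4, Null 2, Null 3 and Null 4 (adjusted p from 0.0650 to 0.104). In TPM as deposited, where the median of all genes shifted to 0.68, the value was 0.44 (adjusted p = 0.707).

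**Figure D2:**
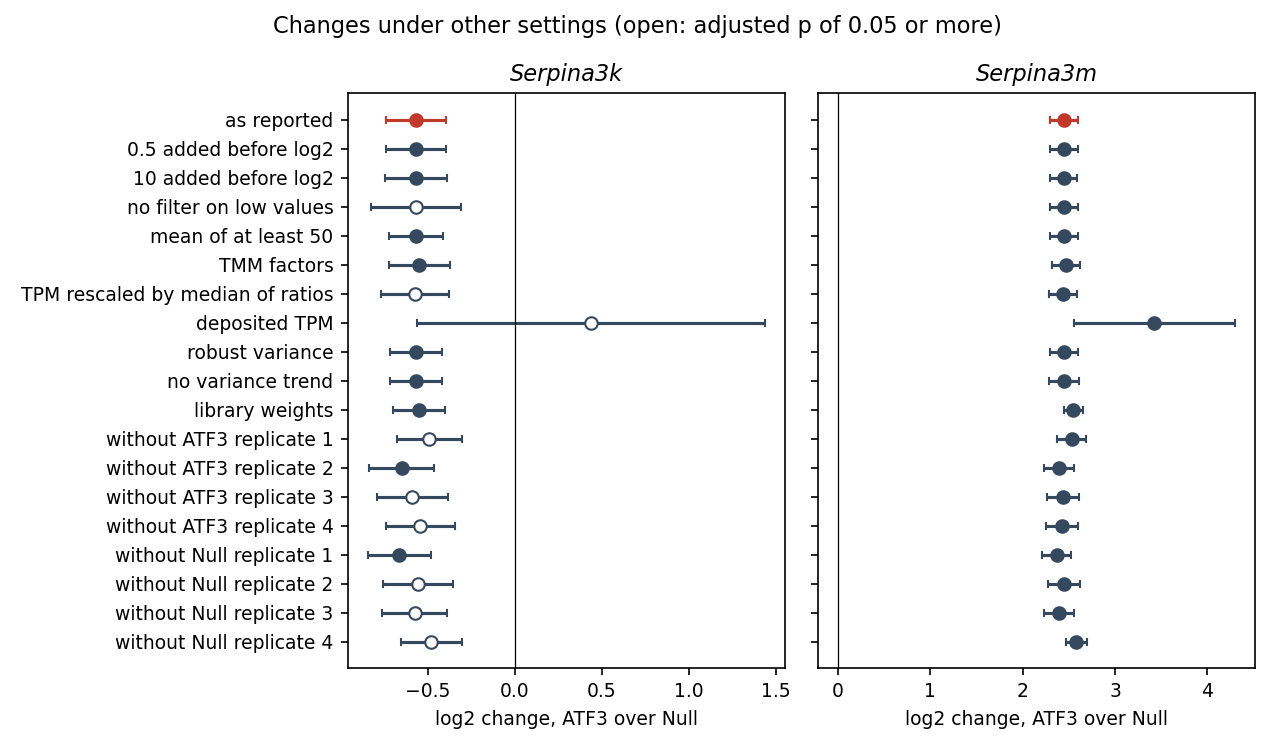
Log2 change of ATF3 over Null (horizontal axis, with SE) of Serpina3k and Serpina3m under the reported setting (red) and each alternative (dark), with open points where the adjusted p was 0.05 or more. Serpina3m stays between 2.37 and 3.43 with filled points throughout, and Serpina3k is open in 9 of 18 alternatives, with its value above 0 for the TPM as deposited.

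Serpina3n encodes a secreted inhibitor of granzyme B and leukocyte elastase that is induced in the acute phase. It had 9727, 13143, 12174 and 10575 normalized counts in ATF3 1 to 4, and 8496, 11375, 15384 and 11986 in Null 1 to 4. Both the lowest and the highest value came from Null, and the groups overlapped. The means were 11405 ± 1540 in ATF3 and 11810 ± 2827 in Null (SD, n = 4 each), with a log2 change of -0.03 (SE 0.17, limma adjusted p = 0.927). The highest Serpina3n value came from Null 3, the library with 29785 counts of Saa1, and without Null 3 the log2 change was 0.11 (adjusted p = 0.677). The part of an acute phase state of Null 3 in the Serpina3n values was not tested.

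Serpina3g, also known as Spi2A, encodes an intracellular inhibitor of lysosomal cysteine cathepsins that is known from myeloid cells and lymphocytes. It had 407, 319, 373 and 307 normalized counts in ATF3 1 to 4, and 270.4, 186, 272.5 and 394 in Null 1 to 4. Only Null 4 reached into the ATF3 range. The means were 351 ± 46.8 in ATF3 and 281 ± 85.8 in Null (SD, n = 4 each), with a log2 change of 0.36 (SE 0.20, limma adjusted p = 0.243). Serpina3g passed the threshold without Null 4, at 0.54 (limma adjusted p = 0.0293), so its call turned on this library. Over all genes tested, those called higher also rose, from 1513 in the reported fit to 1960 without Null 4.

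Serpina3f lies next to Serpina3g and shares more of its 31-base stretches with it (15.3%) than with any other gene. It had 172, 164, 231 and 244 normalized counts in ATF3 1 to 4, and 189, 143, 159 and 179 in Null 1 to 4. ATF3 3 and ATF3 4 lay above every Null library, and ATF3 1 and ATF3 2 lay among them. The means were 203 ± 40.6 in ATF3 and 167 ± 20.6 in Null (SD, n = 4 each), with a log2 change of 0.26 (SE 0.16, limma adjusted p = 0.290). With library weights, Serpina3f reached 0.46 (limma adjusted p = 0.0380) and Serpina3g 0.53 (limma adjusted p = 0.0289). These weights also raised the genes called higher from 1513 to 2271 over all genes tested.

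Serpina3c was near the limit of detection. It had 2.48, 6.82, 1.04 and 5.52 normalized counts in ATF3 1 to 4, and 17.6, 8.38, 25.7 and 4.65 in Null 1 to 4. Null 1, Null 2 and Null 3 held more than any ATF3 library, while Null 4 lay inside the ATF3 range. The means were 3.97 ± 2.67 in ATF3 and 14.1 ± 9.47 in Null (SD, n = 4 each). The difference of mean log2 values was -1.55, and without a filter on low values its adjusted p was 0.103 (limma).

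**Figure D3:**
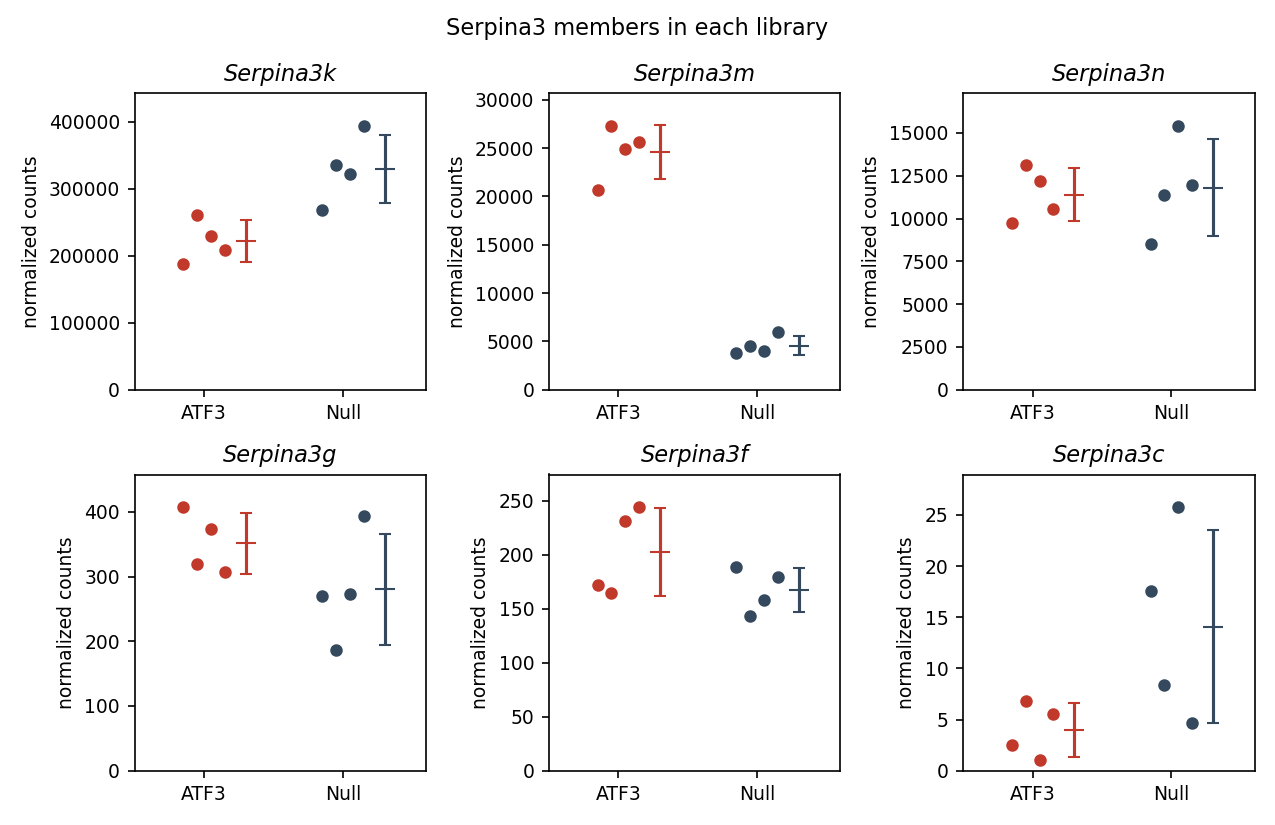
Normalized counts (vertical axes, from 0) of the 6 members in each ATF3 and Null library, 1 point per library, with the mean and SD of 4 libraries beside the points. The groups are apart for Serpina3m (20678 to 27250.5 in ATF3, 3818 to 5946 in Null) and barely apart for Serpina3k, and they overlap for the other members.

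Levels between genes were compared per length, as TPM recomputed without Mir6236 and Rn45s. In ATF3 livers the order was Serpina3k (8939 ± 676 TPM), Serpina3m (989 ± 53.1), Serpina3n (344 ± 25.3), Serpina3g (11.2 ± 2.20), Serpina3f (5.82 ± 1.19) and Serpina3c (0.153 ± 0.0965), all SD with n = 4. In Null livers Serpina3k (11138 ± 1047 TPM) was followed by Serpina3n (299.5 ± 74.0), then Serpina3m (153 ± 21.1), Serpina3g (7.42 ± 1.90), Serpina3f (4.02 ± 0.581) and Serpina3c (0.477 ± 0.332). The levels of neighbours in these orders did not overlap between libraries within either group. Serpina3m and Serpina3n stand in opposite order in the groups. Serpina3k ranked between 12 and 17 among all genes in every library.

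Serpina3m took a larger part of the summed TPM of the 6 members in ATF3 livers. It made up 9.54%, 9.08%, 9.38% and 10.5% of that sum in ATF3 1 to 4, and 1.36%, 1.28%, 1.18% and 1.45% in Null 1 to 4. Serpina3k made up 86.9%, 87.5%, 87.0% and 86.0% in ATF3 1 to 4, and 96.2%, 96.2%, 95.3% and 96.3% in Null 1 to 4. Shares sum to a fixed total, so a larger part for 1 member lowers the others. Serpina3n made up 3.34% ± 0.0802 in ATF3 and 2.58% ± 0.559 in Null (SD, n = 4 each), and its share in Null 3, 3.40%, lay within the ATF3 range. Serpina3g, Serpina3f and Serpina3c together stayed under the share of Serpina3n in every library.

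**Figure D4:**
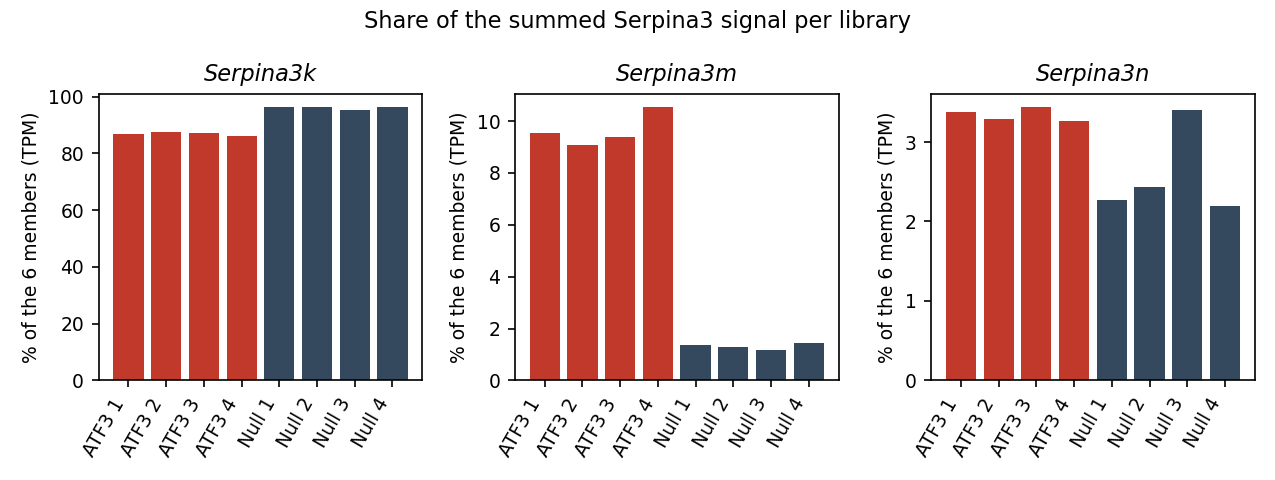
Share of the summed TPM of the 6 members (vertical axes, percent, from 0) held by Serpina3k, Serpina3m and Serpina3n in each library, with ATF3 libraries in red and Null libraries in dark blue. Serpina3m holds 9.08% to 10.5% in ATF3 and 1.18% to 1.45% in Null, and Serpina3k is lower in each ATF3 library than in each Null library.

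The ratio of Serpina3k to Serpina3m in normalized counts was 9.05, 9.58, 9.22 and 8.11 in ATF3 1 to 4, and 70.3, 74.8, 80.2 and 66.1 in Null 1 to 4. This ratio does not depend on the scaling of a library, and its groups lie far apart. Both together, a sum that is mostly Serpina3k, had 207776, 288184, 254880 and 233817 normalized counts in ATF3 1 to 4, and 272205, 339334, 325923 and 399147 in Null 1 to 4. ATF3 2 lay above Null 1, so the sums overlapped. Their means were 246164 ± 33999 in ATF3 and 334152 ± 52142 in Null (SD, n = 4 each). All 6 members together were 1.03% ± 0.107 of the normalized counts in ATF3 and 1.27% ± 0.177 in Null.

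Serpina3k and Serpina3m share sequence, which could let reads of one be counted for the other. Of the 31-base stretches of Serpina3k transcripts, 19.7% also occur in Serpina3m, and 24.5% of those of Serpina3m occur in Serpina3k. The shared stretches lie in exon 1 (100% of it), exon 2 (34.6% of Serpina3k's) and exon 3 (41.8%), with a few in exon 5 (1.36% of Serpina3k's) and none in exon 4. None of the 72 stretches of Serpina3k and none of the 78 of Serpina3m that touch the loop capitals printed above occur in any other gene. Counting all genes, 35% of Serpina3m, 28.4% of Serpina3g, 27.3% of Serpina3f, 24.2% of Serpina3k, 21.6% of Serpina3n and 16.9% of Serpina3c stretches occur elsewhere. Serpina3m was higher and Serpina3k lower in ATF3 livers. The part of shared reads in either value was not tested, since values per exon are not given.

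The other 5 Serpina3 genes in the table were at most weakly present. Serpina3i had 6.46, 3.41, 6.26 and 6.63 normalized counts in ATF3 1 to 4, and 17.5, 14.5, 12.1 and 15.5 in Null 1 to 4. Its groups did not overlap, and it was called lower at a log2 change of -1.27 (SE 0.31, limma adjusted p = 0.0160), although it reached the filter only through Null. The pseudogene Serpina3h was not called, with 12.4 in ATF3 and 15.8 in Null (log2 change -0.25, adjusted p = 0.706). Serpina3j had 1.98, 3.39, 2.07 and 1.10 normalized counts in ATF3 1 to 4 and was listed at 0 in all Null libraries. Serpina3a and Serpina3b averaged 0.830 and 5.39 in ATF3, against 1.40 and 3.96 in Null, and were not tested.

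The Serpina3 genes border other clade A serpins, among them the alpha-1-antitrypsin genes. Of 14 such neighbours in the table, 11 were tested and 11 were called lower. Their median log2 change was -2.92, with a range from -6.51 (Serpina12) to -0.65 (Serpina6). Over all genes tested, 9.82% were called lower and 11.4% higher, with a median of 0.00681. Serpina11 was at -4.36 (SE 0.14, adjusted p = 6.38e-08) and Serpina1e, an alpha-1-antitrypsin gene, at -5.91 (SE 0.25, adjusted p = 2.43e-07). Over the whole cluster of 18 tested genes, Serpina3m was the 1 gene called higher, 13 were called lower and 4 were not called. Serpina9 and Serpina3i lay under 10 in every ATF3 library and were tested because of their Null values alone, so these lower calls were partly fixed by the filter, and 11 are left without them. Serpina12 reached 10 in 1 ATF3 library.

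**Figure D5:**
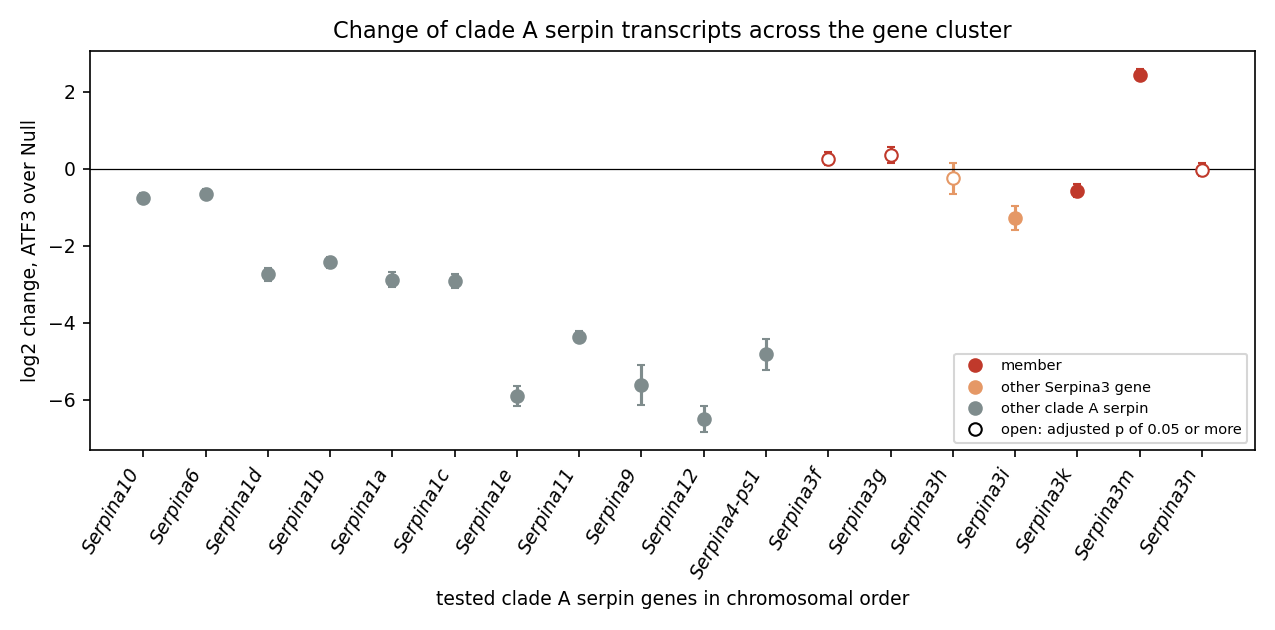
Log2 change of ATF3 over Null (vertical axis, with SE) for the 18 tested clade A serpin genes in chromosomal order (horizontal axis), with members in red, other Serpina3 genes in orange and other serpins in grey. Open points had an adjusted p of 0.05 or more. Serpina3m at 2.45 is the filled point above 0, and the other serpins lie between -6.51 and -0.65.

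The promoter windows of Serpina3c and Serpina3n are shown because the genes differ widely in level and little in these letters. RefSeq windows on GRCm38.p6 (250 bases before to 50 after the transcript start) matched 4 of the 6 members, Serpina3c, Serpina3f, Serpina3g and Serpina3n. Serpina3k and Serpina3m, the members called, had no window, so their promoters were not compared or searched. The window of Serpina3c is chr12:104153823-104154122 on the minus strand and that of Serpina3n chr12:104406458-104406757 on the plus strand. Both are printed 5′ to 3′, and capitals mark bases that differ in the alignment or have no partner in it.
Serpina3c promoter: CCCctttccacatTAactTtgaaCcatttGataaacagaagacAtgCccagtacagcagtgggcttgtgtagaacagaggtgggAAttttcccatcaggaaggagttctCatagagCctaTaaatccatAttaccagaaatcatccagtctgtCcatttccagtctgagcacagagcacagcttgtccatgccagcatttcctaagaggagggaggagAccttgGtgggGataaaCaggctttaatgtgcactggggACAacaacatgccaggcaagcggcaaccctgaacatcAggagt
Serpina3n promoter: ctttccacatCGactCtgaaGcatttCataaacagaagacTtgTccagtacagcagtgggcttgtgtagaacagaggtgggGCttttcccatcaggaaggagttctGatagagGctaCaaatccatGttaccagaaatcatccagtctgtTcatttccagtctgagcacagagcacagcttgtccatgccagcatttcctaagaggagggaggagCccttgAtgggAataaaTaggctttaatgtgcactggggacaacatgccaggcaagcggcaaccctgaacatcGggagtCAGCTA
Of 294 aligned bases, 275 were identical (93.5%), or 89.9% of an alignment of 306 positions with gaps counted. Serpina3n had 344 ± 25.3 TPM in ATF3 and 299.5 ± 74.0 in Null, whereas Serpina3c had 0.153 ± 0.0965 in ATF3 and 0.477 ± 0.332 in Null (SD, n = 4 each). The window at the first transcript start of Serpina3f and that of Serpina3g had 83.7% of 202 aligned bases identical. This was 42.5% of an alignment of 398 positions with gaps counted. With the Serpina3f window at its later transcript start, 61.9% of 247 aligned bases were identical, or 43.3% of 353 positions with gaps counted.

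The windows were searched on both strands for 7 short motifs. TTCNNNGAA, the letters that STAT factors bind, occurred at position -121 of the Serpina3f window (counted from its first transcript start) and at -33 of Serpina3g, and in 8.3% of 32851 windows of all genes. It did not occur in the windows of Serpina3c and Serpina3n. AGAACA, part of the glucocorticoid receptor site, occurred in the windows of Serpina3c, Serpina3f and Serpina3n and in 19% of all windows. GAAANNGAA, an interferon response motif, occurred in that of Serpina3f and in 8.56% of all windows, where it overlaps the TTCNNNGAA match. TGACGTCA, TGANTCA and TGACGCAA, letters bound by CREB, AP-1 and ATF factors, were found in none of these 4 members' windows. They occurred in 1.79%, 7.81% and 0.49% of all windows. TTGCNNNAA was also in none of these 4 members' windows, and in 9.56% of all windows. Its spacing differs from that of the C/EBP site, so C/EBP letters were not searched. A match describes letters and not binding.

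Genes whose profile over the 8 libraries was most like that of a member were found by the root mean square difference of log2 values centred on each gene's mean, over 12601 genes. Because they were picked on these same 8 libraries, a change like that of the member follows from the choice. Their changes and adjusted p are thus a description and no separate evidence. For Serpina3k the most alike genes were Vtn (0.0715), the gene of the plasma protein vitronectin, and Kxd1 (0.0737). Vtn was at -0.65 (SE 0.14, adjusted p = 0.00782) and Kxd1 at -0.52 (SE 0.13, adjusted p = 0.0160). For Serpina3m they were Meiob (0.156), a gene known from meiosis, and Spata24 (0.184). Meiob had 872 ± 52.1 normalized counts in ATF3 and 193 ± 51.4 in Null (SD, n = 4 each), a log2 change of 2.20. Spata24 had 155 ± 19.6 in ATF3 and 25.8 ± 2.67 in Null, a log2 change of 2.54. For Serpina3n they were Itga7 (0.0987) and Tmem176a (0.112), for Serpina3g Fpr2 (0.129), a gene known from myeloid cells, and for Serpina3f Amigo2 (0.0746) and Ms4a6d (0.0843). Among the members themselves, Serpina3f and Serpina3g were the closest pair at 0.317, and Serpina3k and Serpina3m the farthest at 1.51.

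Regulators of the family were read from lists, set beside 11.4% of all tested genes called higher, 9.82% called lower and a median of 0.00681. In the interleukin 6 and STAT3 list, 1 of 15 tested genes was called higher and 5 lower, with a median of -0.26. The 5 lower calls include interleukin 1 receptor genes and an inhibitor of STAT3, so the counts give no direction for the pathway. Il1r1, the interleukin 1 receptor gene, was at -1.79 and Il6st, the gene of the receptor subunit gp130, at -0.46. Cebpd, a transcription factor of the acute phase, was at 1.15 (adjusted p = 0.00310). Stat3 had 2977 ± 231 in ATF3 and 3672 ± 281 in Null (SD, n = 4 each; log2 change -0.30, adjusted p = 0.0438), a call lost in 6 of 8 fits without 1 library. In deposited TPM, with its shift of 0.68 for all genes, the signs of Stat3, Il6st, Il6ra, Stat5a, Stat5b, Nr3c1, Tdo2, Pck1, Irf1, Hgfac, Vtn and Kxd1 turned, without a call. Not called in the reported fit were Socs3 at -0.98 (adjusted p = 0.126), Il6ra at -0.25 (adjusted p = 0.616) and Cebpb at 0.23 (adjusted p = 0.203).

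Of the acute phase genes, which share regulators with Serpina3n, 3 of 24 tested were called higher and 7 lower, with a median of -0.33. Without Null 3 these counts were 2 and 6. Orm3, an orosomucoid gene, was at 4.30 (adjusted p = 3.74e-05). Hp, the haptoglobin gene, was at -3.41 (adjusted p = 1.98e-05) and Itih3 at -5.01 (adjusted p = 6.38e-08). Saa1 had 861 ± 305 in ATF3 and 8750 ± 14102 in Null (SD, n = 4 each), and was not called (log2 change -1.70, adjusted p = 0.278).

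In the growth hormone and STAT5 list, a pathway known to drive a related serpin gene in rat liver, 1 of 13 tested genes was called higher and 3 lower, with a median of -0.26. Prlr, the prolactin receptor gene, was at 2.18, Egfr at -1.80 and Stat5a at -0.63. Stat5b at -0.26 (adjusted p = 0.0862) and Ghr at 0.26 (adjusted p = 0.156) were not called. In the glucocorticoid list, 1 of 12 was called higher and 4 lower, with a median of -0.06. Nr3c1, the glucocorticoid receptor gene, was at -0.41 (adjusted p = 0.00339), Tdo2 at -0.57 and Pck1 at -0.61. In the interferon list, 4 of 18 were called higher and 1 lower, with a median of 0.11. The guanylate-binding protein genes Gbp7 and Gbp3 were at 1.34 and 1.04, and the transcription factor gene Irf1 at -0.43.

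Proteases that serpins of this clade meet were mixed, with 2 of 16 tested called higher, 4 lower and a median of -0.07. Ctsl, the gene of cathepsin L, a lysosomal cysteine protease, had 4274 ± 430 normalized counts in ATF3 and 10706 ± 900 in Null (SD, n = 4 each; log2 change -1.33, adjusted p = 1.41e-05). Ctsc, which activates granzymes and neutrophil serine proteases, had 7476 ± 388 in ATF3 and 3579 ± 716 in Null (log2 change 1.08, adjusted p = 0.000449). Hgfac, a serine protease gene of hepatocytes, was at -0.85 (adjusted p = 0.000187). The list also holds Mpo, a neutrophil peroxidase gene, which was listed at 0 in all libraries.

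Markers of the other cells of liver are given because Serpina3g is known from leukocytes. Over all genes tested, 21.2% were called, 11.4% higher and 9.82% lower, and nothing is read from marker lists this short. Of 10 macrophage and Kupffer cell markers tested, 0 were called by limma (0 at an unadjusted p under 0.05), and their summed level was 10541 to 13711 in ATF3 and 8978 to 13462 in Null. Of 3 tested neutrophil and monocyte markers, 0 were called by limma (0 at an unadjusted p under 0.05), with sums of 196 to 242 in ATF3 and 148 to 219 in Null, and Ly6g was at 0 in all libraries. Of 5 tested T and NK cell markers, 1 was called lower (Cd4), with sums of 75.1 to 121 in ATF3 and 107 to 151 in Null. B and plasma cell markers gave 0 limma calls of 6 (0 at an unadjusted p under 0.05), with sums of 133 to 197 in ATF3 and 169 to 280 in Null. Endothelial markers gave 0 limma calls of 8 (1 at an unadjusted p under 0.05), with sums of 11839 to 12147 in ATF3 and 12010 to 13732 in Null. Stellate cell and fibroblast markers gave 0 limma calls of 9 (2 at an unadjusted p under 0.05), with sums of 10603 to 13018 in ATF3 and 11478 to 15928 in Null. Among 6 cholangiocyte markers 1 was called lower (Sox9), with sums of 893 to 1267 in ATF3 and 887 to 1429 in Null. Of 9 hepatocyte markers, 1 was called higher (Ttr, the transthyretin gene, at 1.26) and 3 lower. The lower ones were Serpina1a (-2.89), Cps1 (-0.58) and Apoa1 (-0.46), and Serpina1a was also counted among the clade A neighbours above. The part of any of these cells in the Serpina3 values was not tested.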

How the data were processed

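Liver RNA was isolated with a mirVana kit and made into stranded total RNA libraries with an Illumina TruSeq kit, per the labels' protocols. Sequencing was on a NextSeq with analysis in Illumina BaseSpace, per the series' design text, and Bowtie2 and mm10 are named, per the submitters' processing notes. The quantifier, the annotation and the sex of the mice are not stated in the labels. The authors deposited a signal per gene, estimated counts that are not whole and were normalized between libraries by the authors with DESeq, per the table's name. From 35.3% to 60.4% of low values lay within 0.05 of a whole multiple of a library's most frequent low value, so whole reads were not recovered and intervals from counts are not given. The authors also deposited TPM, in which the names of 26 genes had turned into dates and were left out.

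Normalized values were tested as log2(value + 1) with limma 3.58.1 in R 4.3.3 (eBayes with a trend, two-sided, Benjamini-Hochberg adjustment, threshold 0.05), on genes with at least 10 in at least 4 of 8 libraries. Adding 1 understates changes of low genes. The procedure was tested on simulated data with known changes. Libraries were grouped by the labelled virus and numbered in accession order, which pairs none of them. TPM were recomputed without Mir6236 and Rn45s, small-RNA and ribosomal loci by symbol. Members and lists were chosen with earlier results of these data known. Genes named are the members, every other Serpina3 gene, Atf3, 8 fixed regulators, up to 3 genes of each list with the smallest p, and the 2 genes most like each tested member; 2 genes the rule names are not reported here. Exceptions, named after their values were seen, are Saa1 and Saa2, Serpina6 as the end of a range and Serpina9 for its low values. Further exceptions are Cd4, Sox9 and Ttr as single calls, Serpina1a, Cps1 and Apoa1 as lower hepatocyte markers, and Mpo and Ly6g, listed at 0. Sequences come from GENCODE vM21 transcripts for mm10 and RefSeq promoters (GRCm38.p6), matched by symbol, and were aligned with Biopython 1.88 in Python 3.11.15. Alternatives covered the value added, filters, scaling, the variance model, library weights and leaving out each library.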

Additional observations from a re-analysis of the deposited data

Results flagged for a closer look

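In 5 of 104 groups of 4 libraries, 1 library lay far from the other 3, where chance gives about 1 in 20 groups. Serpina3i had 3.41 normalized counts in ATF3 2, against 6.26 to 6.63 in the other ATF3 libraries. Null 3 held 29785 normalized counts of Saa1 and 19862 of Saa2, while the other Null libraries held 536 to 3841 of Saa1 and 240 to 1423 of Saa2, and it also had the highest Serpina3n value. Orm3 had 88.2 in Null 3, against 18.6 to 29.4 in the other Null libraries. Ctsc had 6895 in ATF3 2, against 7658 to 7692 in the other ATF3 libraries. No member of the 6 lay far from its group in this way.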

How the results depend on the processing

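Serpina3m kept its direction and call in 18 of 18 alternatives, at 2.37 to 2.58 with 1 library left out at a time. Serpina3k kept its call in 9 of 18: without a filter on low values it was -0.57 (adjusted p = 0.186), with TPM rescaled by median of ratios -0.57 (adjusted p = 0.0664), and with 1 library left out -0.67 to -0.48. Serpina3f and Serpina3g passed with library weights, at 0.46 and 0.53. With 1 library left out, Serpina3g lay at 0.18 to 0.54, past the threshold only without Null 4, Serpina3f at 0.17 to 0.36, and Serpina3n at -0.18 to 0.11, its sign turned without ATF3 1 (0.0445), ATF3 4 (0.00435) or Null 3 (0.109). Genes called numbered 2271 higher and 2130 lower with library weights, 1003 to 1960 higher and 846 to 1774 lower with 1 library left out (fewest without ATF3 3), and 440 higher and 76 lower in deposited TPM.

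Deposited TPM, in which Mir6236 takes 89.4% of Null 1, moved the median of all genes to 0.68, against -0.0114 to 0.0272 in the other settings. There the sign turned for Serpina3k (0.44), Serpina3n (0.97), Serpina3h (0.0247), Stat3 (0.65), Stat5a (0.18), Stat5b (0.62), Nr3c1 (0.54), Il6ra (0.66), Il6st (0.52), Tdo2 (0.44), Pck1 (0.39), Irf1 (0.49), Hgfac (0.14), Vtn (0.36), Kxd1 (0.40), Itga7 (0.37) and Tmem176a (0.98), none of them called. Signs also turned for Tmem176a with TMM factors (0.0175) and, among fits without 1 library, for Serpina3h (-0.50 to 0.0599), Itga7 (-0.25 to 0.0596) and Tmem176a (-0.16 to 0.114). The cause was not tested. Serpina3i lost its call in deposited TPM (-0.0921, adjusted p = 0.482) and could not be fitted where a Null library was left out or at a mean of at least 50. Serpina3c could be fitted only without a filter. No paired analysis was possible because the replicate numbers are in accession order and pair no libraries. Depth limits Serpina3c, Serpina3h, Serpina3i and Serpina3j, with few counts per library.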
